A study of Mus musculus with 48 samples.

Results

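This comparison set livers from mice on a carbohydrate-rich diet against livers from mice on a fat-rich diet at one protein share. It took every mouse whose label gave 33% of energy as protein, which was 9 of the 48 mice on the arrays. On 33/47/20 (33% protein, 47% carbohydrate, 20% fat) there were 4 mice, 2 at high and 2 at medium energy density. On 33/20/47 (33% protein, 20% carbohydrate, 47% fat) there were 5 mice, 2 at high and 3 at medium energy density. The diets thus exchanged 27 points of energy between carbohydrate and fat. All 48 mice had been fed their diet freely from 3 weeks of age and were 15 months old when the liver was taken. Total RNA was hybridized to 1 Affymetrix array per mouse. The labels gave neither the strain nor the sex of a mouse. Mice were housed 3 to a cage and 1 mouse was taken from each cage, so each value is from a separate animal. Within a group the mice are numbered by the order of their records, and values per mouse are given in that order, high energy before medium.

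Hepatocytes turn excess carbohydrate into fatty acids through de novo lipogenesis, a pathway whose genes are known to be driven by the transcription factors SREBP1c (Srebf1) and ChREBP (Mlxipl). When fat is the main fuel, fatty acids enter mitochondria on carnitine and are broken down by beta-oxidation, whose enzymes are known targets of the fatty acid sensor PPAR alpha. The comparison asks how liver expression differed between a carbohydrate-rich and a fat-rich diet when protein was ample.

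Hepatocyte markers were high on all 9 arrays, with 11 tested markers averaging 10.91 ± 0.04 on the log2 scale on 33/47/20 (SD, n = 4) and 10.93 ± 0.09 on 33/20/47 (SD, n = 5). The median r between arrays of 1 composition was 0.967 over 16 pairs, and that between arrays of the 2 compositions was 0.966 over 20 pairs. The interquartile range of an array, which measures how far its values spread, was 3.25 ± 0.10 on 33/47/20 and 3.10 ± 0.15 on 33/20/47. This difference of 0.147 was not significant (two-sided exact permutation within energy level, p = 0.15, adjusted p = 0.325 over 3 array measures, with 0.0167 the smallest p that 60 arrangements allow).

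Sex was read from the arrays as the mean of the Y-linked genes minus Xist, the transcript that silences 1 X chromosome in females. In the high energy groups it was 3.88 and 3.41 on 33/47/20, against -4.46 and -4.71 on 33/20/47. In the medium energy groups it was 3.32 and -4.76 on 33/47/20, against 4.14, 3.61 and -5.02 on 33/20/47. At high energy the diet and this value therefore cannot be told apart. At medium energy each diet held both signs, but in unequal shares. Over the 9 mice the difference was 2.85 (exact permutation within energy level, p = 0.5), and 60 arrangements cannot show that the diets were balanced. Of 16 tested genes known to be higher in male liver, all 16 had a positive difference at high energy, with a median of 4.86. At medium energy the median was -0.77, with 3 of 16 positive. Each result below that rests on the high energy mice carries this limit, as in part do those over both levels and the interaction. For the main ones, values from a model with that quantity as a term (the sex term) are given as well. Its size rests almost wholly on mice outside the high energy 33% protein groups and is taken as the same on every diet. With it the median of the 16 male genes at high energy was still 2.22. That of 23 tested genes known to be higher in female liver was -6.10 without it and -2.49 with it. Over both levels all 16 male genes were positive, with a median of 1.41 without the term and 0.41 with it. The female genes had -0.72 and -0.35 there. At medium energy all 23 female genes were positive, with a median of 1.59 without the term and 1.20 with it. Values with the sex term are therefore not free of the sex difference at high energy. At medium energy and over both levels they may not be free of it either.

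None of 16926 genes passed a Benjamini-Hochberg adjusted p of 0.05 between 33/47/20 and 33/20/47 with energy level in the model (limma, 0% called). The lowest adjusted p was 0.252. At an unadjusted p under 0.05 there were 739 genes with higher values (4.37% of those tested) and 658 with lower values (3.89%) on 33/47/20. The 4 carbohydrate-rich mice lay wholly above the 5 fat-rich mice for 215 genes (1.27%) and wholly below them for 171 (1.01%). The count at an unadjusted p under 0.05, 1397 in all, was 2015 with the sex term, 713 without the first high energy mouse on 33/20/47, 838 without the first high energy mouse on 33/47/20, 892 without the first and 2188 without the second medium energy mouse on 33/47/20. The values that follow are therefore sizes and counts, each to be read against these shares. Differences are 33/47/20 minus 33/20/47 on the log2 scale, with the standard error of the model.

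Genes of fatty acid synthesis had higher fitted values on the carbohydrate-rich diet, with 19 of 20 tested members positive and a median difference of 0.54. Over all 16926 genes 51.1% were positive and the median was 0.01. Of the 20, 5 had an unadjusted p under 0.05, all of them positive, and none passed the adjusted threshold. Those 5 were Scd1, Acaca, Elovl6, Fasn and Gpam.

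Fasn, the fatty acid synthase, had values of 10.23 and 9.03 (high energy) and 9.04 and 10.47 (medium energy) on 33/47/20, against 8.50 and 7.62 (high) and 10.04, 8.11 and 7.64 (medium) on 33/20/47. All 4 carbohydrate-rich mice lay above 4 of the 5 fat-rich mice, and 1 medium energy fat-rich mouse lay among them. The difference was 1.35 ± 0.53 (95% interval 0.28 to 2.42, limma adjusted p = 0.592). Acaca, the acetyl-CoA carboxylase that feeds Fasn, had 7.94, 7.28, 7.77 and 8.54 on 33/47/20, against 6.78, 6.55, 7.91, 7.33 and 6.93 on 33/20/47, and the same medium energy fat-rich mouse was the highest of its group. Its difference was 0.85 ± 0.27 (95% interval 0.29 to 1.40, adjusted p = 0.592).

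The products of Fasn are lengthened by Elovl6 and desaturated by Scd1. Elovl6 had 9.59, 7.89, 7.69 and 9.56 on 33/47/20, against 7.02, 7.99, 8.38, 7.06 and 6.38 on 33/20/47, a difference of 1.30 ± 0.47. Of the carbohydrate-rich mice, 1 at each energy level stood well above all others and the remaining 2 lay within the range of the fat-rich mice. Scd1 had 12.26, 10.42, 11.92 and 12.29 on 33/47/20, against 11.03, 10.25, 11.75, 10.61 and 10.53 on 33/20/47, a difference of 0.94 ± 0.30 (95% interval 0.33 to 1.54). The second high energy carbohydrate-rich mouse was the exception here, at the level of the fat-rich mice. Gpam, which starts glycerolipid assembly and was singled out after its value was seen, averaged 9.32 ± 0.52 on 33/47/20 and 8.73 ± 0.52 on 33/20/47.

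**Figure D1:**
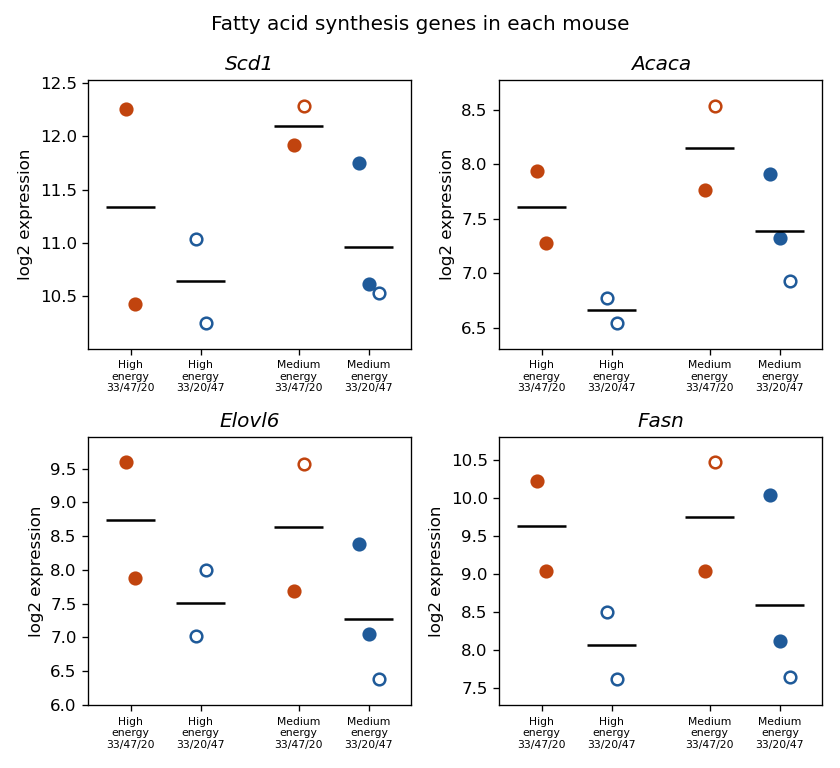
Log2 expression of Scd1, Acaca, Elovl6 and Fasn in each of the 9 mice by energy level and diet, red for 33/47/20 and blue for 33/20/47, with a line at each group mean. Filled points are mice with Y-linked genes above Xist and open points those with Xist above; Fasn lies at 9.03 or more in every 33/47/20 mouse, and 1 medium energy 33/20/47 mouse reaches 10.04.

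The pathway's regulators and the enzymes that supply it had smaller fitted differences than those 4. Srebf1 was 0.35 ± 0.26 higher (95% interval -0.19 to 0.88) and Mlxipl 0.49 ± 0.38 higher (95% interval -0.29 to 1.27). Acly, which makes cytosolic acetyl-CoA from citrate, differed by 0.43 ± 0.30, and Pklr, the liver pyruvate kinase, by 0.38 ± 0.40. Intervals that include 0 do not show that these genes were alike on both diets. Thrsp, a lipogenic gene of hepatocytes, had 9.53, 8.10, 7.42 and 10.56 on 33/47/20, against 9.78, 8.48, 9.66, 8.84 and 7.69 on 33/20/47, and its 95% interval ran from -1.04 to 1.04. Pnpla3, a lipase of lipid droplets, had 5.89 in the second medium energy mouse on 33/47/20 and 1.35 to 1.85 in the other 3, against 1.38 to 3.38 on 33/20/47.

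With the sex term the lipogenic list had a median of 0.55 and 19 of 20 positive members. The median was 0.64 at high energy (15 of 20 positive, 0.58 with the sex term) and 0.50 at medium energy (19 of 20 positive). With the interquartile range of the array in the model the median was 0.36. Without the second medium energy mouse on 33/47/20 it was 0.29, and without the first high energy mouse on that diet 0.36. Averaged over the 20 genes, these 2 mice stood at 9.26 and 9.0, their 2 diet mates at 8.02 and 8.09, and the fat-rich mice between 7.56 and 8.67.

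The sequences just before the start sites of Fasn and Elovl6, whose fitted differences were the largest of the 4 named first, are given from the RefSeq promoters of GRCm38.p6. Each is the 150 bases before the start, 5′ to 3′, with capitals for any match on either strand to CACGTG, the E-box core bound by ChREBP and SREBP1, TCACNCCAC, a sterol response element, CCAAT, the NF-Y motif, GGGCGG, the Sp1 motif, or AGGTCA, the nuclear receptor half-site.
Fasn (chr11:120824548-120824697, minus strand): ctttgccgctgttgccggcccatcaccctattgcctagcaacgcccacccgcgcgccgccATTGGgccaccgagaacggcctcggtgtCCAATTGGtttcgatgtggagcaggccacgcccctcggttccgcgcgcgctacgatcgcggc
Elovl6 (chr3:129532236-129532385, plus strand): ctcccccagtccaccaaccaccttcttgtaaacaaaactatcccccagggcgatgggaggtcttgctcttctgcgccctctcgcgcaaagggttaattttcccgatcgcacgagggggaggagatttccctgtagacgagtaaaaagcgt
The Fasn window held 3 CCAAT matches, 2 of them overlapping on opposite strands, and the Elovl6 window held 0 matches to the 5 motifs. Among 32851 RefSeq promoter windows of 150 bases, 24.5% held CCAAT, 4.29% CACGTG and 0.639% TCACNCCAC. A match is a run of letters and not a measured binding site.

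Genes of fatty acid oxidation had mostly lower fitted values on the carbohydrate-rich diet, with 23 of 30 tested members negative and a median difference of -0.21. An unadjusted p under 0.05 was reached by 10 members, all with lower values on 33/47/20, and none passed the adjusted threshold. Slc25a20, Ech1, Eci2 and Eci1 had the smallest p. The list median was -0.63 at high energy (-0.50 with the sex term) and -0.09 at medium energy, where 12 of 30 were positive. At an unadjusted p under 0.05, 14 members were lower at high energy, and 0 differed in either direction at medium energy. The values over both levels thus rest mainly on the high energy mice, with the limit on sex given above. Averaged over the 30 genes the carbohydrate-rich mice ranged from 7.84 to 8.64 and the fat-rich mice from 8.17 to 8.96, so that the groups overlapped.

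Slc25a20, the carnitine carrier that brings acylcarnitines into mitochondria, had 8.48 and 8.65 (high energy) and 8.50 and 8.61 (medium energy) on 33/47/20, against 9.66 and 9.53 (high) and 8.63, 8.96 and 8.69 (medium) on 33/20/47. The carbohydrate-rich mice lay close together, and both high energy fat-rich mice stood well above them. The difference was -0.58 ± 0.14 (95% interval -0.87 to -0.29, limma adjusted p = 0.592). Ech1, an isomerase for unsaturated fatty acids, had 10.16, 10.18, 10.11 and 10.28 on 33/47/20, against 10.88, 10.76, 10.56, 10.47 and 10.29 on 33/20/47. Its groups did not overlap, though the closest values were 10.28 and 10.29. The difference was -0.43 ± 0.11 (95% interval -0.66 to -0.20).

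Eci2 and Eci1, isomerases that also serve the breakdown of unsaturated fatty acids, differed by -0.49 ± 0.13 and -0.51 ± 0.16. Eci2 had 8.20, 8.23, 7.97 and 8.38 on 33/47/20, against 8.88, 8.84, 8.14, 8.82 and 8.61 on 33/20/47, so that 1 medium energy fat-rich mouse overlapped. Acat1, a thiolase of ketone and isoleucine metabolism, differed by -0.46 ± 0.15, with both high energy fat-rich mice at 11.21 and the other 7 between 10.14 and 10.72. Cyp4a14, an omega-hydroxylase and a strong PPAR alpha target, differed by -1.02 ± 0.48. The second high energy carbohydrate-rich mouse had 7.52 and the other 8 mice 10.23 to 11.29, and without it the difference was -0.28.

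**Figure D2:**
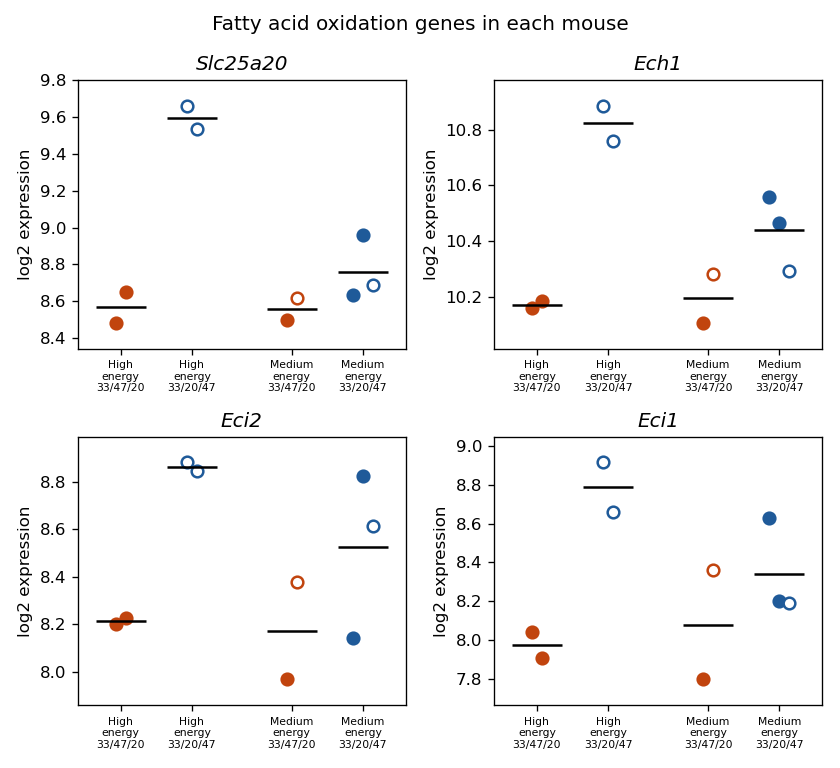
Log2 expression of Slc25a20, Ech1, Eci2 and Eci1 in each of the 9 mice by energy level and diet, red for 33/47/20 and blue for 33/20/47, with a line at each group mean. Filled points are mice with Y-linked genes above Xist and open points those with Xist above; the high energy 33/20/47 mice are at 9.66 and 9.53 for Slc25a20, against 8.48 and 8.65 in the high energy 33/47/20 mice.

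Members of the same list with the opposite sign included Cpt1a, which makes the acylcarnitines that Slc25a20 carries. Cpt1a had 10.52, 10.07, 10.38 and 9.89 on 33/47/20, against 9.75, 9.88, 9.92, 9.63 and 10.18 on 33/20/47, a difference of 0.34 ± 0.28 (95% interval -0.23 to 0.91). Fgf21, a fasting hormone under PPAR alpha, differed by -0.84 ± 0.60 and Pdk4, which restrains glucose oxidation, by -0.12 ± 0.65, both with intervals that include 0. With the sex term 7 members had an unadjusted p under 0.05, all negative, and the list median was -0.17. Without the second high energy mouse on 33/47/20 the median was -0.11, and without the first medium energy mouse on that diet it was -0.43.

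The start regions of the 3 oxidation genes with the smallest p are given in the same way.
Slc25a20 (chr9:108661986-108662135, plus strand): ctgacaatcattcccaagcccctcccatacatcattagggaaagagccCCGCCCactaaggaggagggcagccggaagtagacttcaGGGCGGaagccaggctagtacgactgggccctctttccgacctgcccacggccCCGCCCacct
Ech1 (chr7:28825188-28825337, plus strand): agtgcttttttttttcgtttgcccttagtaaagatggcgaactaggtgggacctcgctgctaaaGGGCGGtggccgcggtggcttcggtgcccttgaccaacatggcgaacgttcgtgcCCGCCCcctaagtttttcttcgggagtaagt
Eci2 (chr13:34994145-34994294, minus strand): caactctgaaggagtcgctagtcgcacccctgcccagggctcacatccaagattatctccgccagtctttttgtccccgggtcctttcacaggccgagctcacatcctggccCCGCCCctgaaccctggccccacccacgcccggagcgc
These windows held 3, 2 and 1 matches to GGGCGG, a motif present in 28.6% of all windows, and 0 to AGGTCA, present in 8.58%. No match says only that these letters are not in this window.

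Genes of oxidative phosphorylation also had lower fitted values on the carbohydrate-rich diet, with 28 of 29 tested genes negative. Their median was -0.25 and 6 had an unadjusted p under 0.05, all negative. Uqcrc2, a core subunit of complex III, had 9.25, 9.59, 9.33 and 9.73 on 33/47/20, against 10.07, 10.12, 9.74, 9.76 and 9.66 on 33/20/47, a difference of -0.41 ± 0.17. Uqcrb, of the same complex, differed by -0.26 ± 0.10, and Ndufv2, of complex I, by -0.45 ± 0.19. Averaged over the 29 genes the carbohydrate-rich mice ranged from 7.99 to 8.24 and the fat-rich mice from 8.24 to 8.50, so that the groups overlapped slightly. The list median was -0.37 at high energy (1 of 29 positive, -0.46 with the sex term) and -0.13 at medium energy (6 of 29 positive). With the interquartile range of the array in the model it was -0.14 over both levels. Of 17 genes for breaking down branched-chain amino acids, 14 were negative, with a median of -0.12 and 2 at an unadjusted p under 0.05.

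Genes of the circadian clock had a positive median of 0.16, with 12 of 16 positive and 3 at an unadjusted p under 0.05. That median was 0.23 at high and 0.46 at medium energy, 0.08 with the interquartile range term, and 0.10 to 0.30 with 1 mouse left out, lowest without the second medium energy mouse and highest without the second high energy mouse on 33/20/47. Dbp, a clock-driven transcription factor with a strong daily rhythm, had 6.55, 5.05, 7.27 and 5.29 on 33/47/20, against 4.75, 3.67, 4.24, 4.0 and 3.08 on 33/20/47, and the groups did not overlap. Its difference was 2.09 ± 0.97 (95% interval 0.12 to 4.06, adjusted p = 0.592). Nr1d1, the repressor REV-ERB alpha, had 8.99, 7.74, 8.07 and 7.66 on 33/47/20, against 6.67, 6.45, 7.50, 6.25 and 7.04 on 33/20/47, again with no overlap. Cry2, a repressor of the clock, differed by 0.99 ± 0.38, with 1 fat-rich mouse at 5.84 among the carbohydrate-rich values of 5.42 to 6.43. The labels gave no time of day for the taking of tissue.

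**Figure D3:**
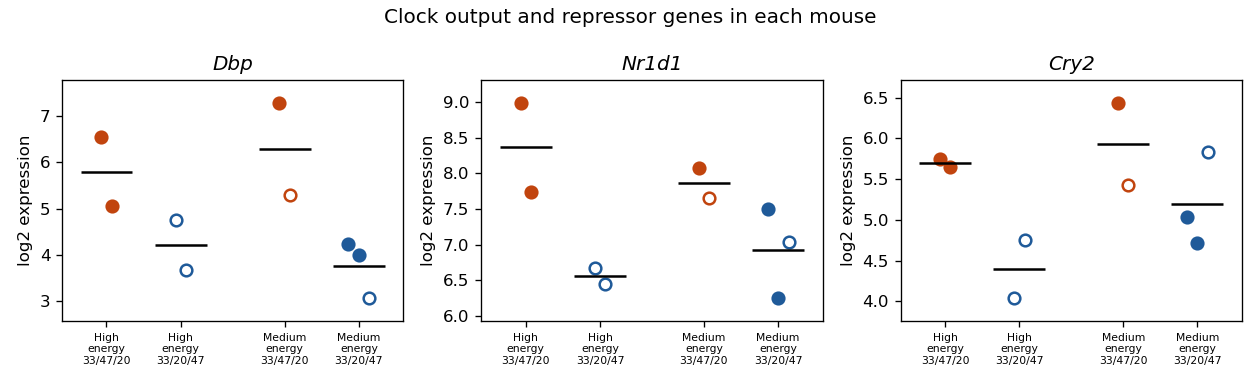
Log2 expression of Dbp, Nr1d1 and Cry2 in each of the 9 mice by energy level and diet, red for 33/47/20 and blue for 33/20/47, with a line at each group mean, and with Y-linked genes above Xist in filled points and Xist above in open points. Dbp ranges from 5.05 to 7.27 on 33/47/20, against 3.08 to 4.75 on 33/20/47.

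Among genes outside these lists, Mapt, which encodes the microtubule protein tau, had the smallest p. Its values were 3.17, 2.38, 3.08 and 2.87 on 33/47/20, against 1.80, 1.86, 1.45, 2.11 and 1.95 on 33/20/47, low on the scale and without overlap. The difference was 1.05 ± 0.21 (95% interval 0.63 to 1.47, limma adjusted p = 0.252), and with the sex term the adjusted p was 0.0568. Smad1, a signal carrier of bone morphogenetic proteins, had 4.73, 4.90, 4.75 and 4.58 on 33/47/20, against 3.49, 4.0, 4.16, 4.11 and 4.19 on 33/20/47, a difference of 0.77 ± 0.19.

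The other positive genes among the 12 smallest p were Tyw1, Hspb7, Atp8b4, Ift140, Rras, Mier2, Map9, Hs2st1, Tescl and Zer1, with differences from 0.52 to 1.07. Some of them were also low on the scale, such as Map9 with 1.09 to 1.72 on 33/20/47, where the filter was 1.17. Zer1, a substrate receptor of a ubiquitin ligase, had 4.60 to 4.77 on 33/47/20, against 2.52 to 4.19 on 33/20/47. Among the 12 negative genes, Gm4952 differed by -1.27 ± 0.27, Nlrp12, a regulator of inflammation, by -1.09 ± 0.30 and Prkcq, a protein kinase C, by -0.92 ± 0.24. Nlrp12 had 5.91, 6.00, 5.62 and 5.51 on 33/47/20, against 6.92, 6.58, 6.47, 6.71 and 7.53 on 33/20/47, with no overlap. Tagln3, Mycbpap, D030056L22Rik, Gm9234, Olfr1395 and Syap1, with Slc25a20, Ech1 and Eci2 above, made up the rest, and none of the 24 passed the adjusted threshold. Tagln3 was low on the scale as well, with 1.61 to 2.43 on 33/20/47.

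Of the lipid uptake and storage genes, Cd36, a fatty acid transporter, differed by -0.50 ± 0.48, Pparg by 0.51 ± 0.45 and the lipid droplet gene Cidec by 0.40 ± 0.59. Pck1, which commits carbon to gluconeogenesis, differed by -0.06 ± 0.14 (95% interval -0.33 to 0.22), and Khk, the fructokinase, by -0.18 ± 0.21. Cyp7a1, the rate-limiting enzyme of bile acid synthesis, differed by 0.04 ± 0.51 (95% interval -1.0 to 1.07), and Sqle, of cholesterol synthesis, by 0.25 ± 0.61. Of 20 genes of bile acid synthesis and transport 11 were negative, with a median of -0.06. At an unadjusted p under 0.05, 3 were higher and 1 was lower on 33/47/20. Of the 20, Abcc2, the canalicular exporter of conjugates, was the one with the smallest p. It had 10.40, 9.99, 10.52 and 9.71 on 33/47/20, against 9.06, 9.52, 9.66, 9.56 and 9.87 on 33/20/47, a difference of 0.64 ± 0.22.

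Of 25 tested cytochrome P450 genes and regulators of xenobiotic metabolism, 19 were negative with a median of -0.52, which was -0.11 with the sex term. At high energy it was -0.93 (-0.34 with the sex term) and at medium energy 0.07. With 1 mouse left out it ran from -0.56 to -0.13, the value nearest 0 being that without the second high energy mouse on 33/20/47. Cyp2c37 differed by -1.70 ± 0.52 and Nr1i3, the receptor CAR, by -0.98 ± 0.36. The first medium energy mouse on 33/47/20 was the lowest of the 9 for both, at 6.88 and 6.25. Without it the differences were -0.81 and -0.49, and without its medium energy diet mate they were -2.53 and -1.50. Markers of other liver cells also differed in fitted value. Of 18 stellate cell and fibrosis genes 13 were positive, with a median of 0.30, and the first medium energy mouse on 33/47/20 had the highest values of Mmp2 (5.89), Col1a2 (6.00) and Col6a1 (6.15). Without that mouse the median was 0.07. It was -0.19 at high energy (5 of 18 positive, -0.04 with the sex term) and 0.65 at medium energy (17 of 18 positive). The mean of that list ranged from 4.33 to 5.87 on 33/47/20 and from 4.35 to 4.91 on 33/20/47.

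Of 11 endothelial markers 9 were negative, with a median of -0.30, which was -0.21 with the sex term (4 of 11 positive). It was -0.28 at high energy (0.03 with the sex term) and -0.22 at medium energy. Clec4g, a lectin of liver sinusoidal endothelium, had 8.71, 7.65, 7.33 and 8.75 on 33/47/20, against 9.12, 8.96, 8.85, 9.22 and 8.86 on 33/20/47, with no overlap and a difference of -0.91 ± 0.26. Of 19 macrophage and myeloid markers 12 were negative, with a median of -0.27, which was -0.11 with the sex term. It was -0.49 at high energy and 0.20 at medium energy, where 11 of 19 were positive. In whole liver, fewer cells of a type and less RNA per cell cannot be told apart, and the part of these markers in the lipid gene results was not tested.

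Within high energy, with all 48 mice in the model, 2 of 16926 genes passed the threshold (0.0118%). Atp8b1, a flippase of the canalicular membrane, rose on 33/47/20, with 7.92 and 8.08 there against 6.37 and 6.85 on 33/20/47, a difference of 1.39 ± 0.24 (limma adjusted p = 0.0287). Slc25a20 fell by 1.03 on the log2 scale (SE 0.19, adjusted p = 0.0404). With the sex term the differences were 1.35 and -1.04, and neither passed (adjusted p = 0.0732 for both). From the 9 mice alone 6 genes passed but neither of these (adjusted p = 0.132 for Atp8b1 and 0.136 for Slc25a20), and the high energy mice fitted by themselves gave 1 gene (lowest adjusted p 0.0221). Without the first high energy mouse on 33/20/47, neither passed (adjusted p = 0.759 for both) and 0 genes were called, with 888 at an unadjusted p under 0.05. Without the second mouse of that group 41 genes were called, and without the first or the second high energy mouse on 33/47/20 there were 17 and 1. Without the second of these, neither gene passed (adjusted p = 0.181 for Atp8b1 and 0.119 for Slc25a20), and without the first Slc25a20 did not (adjusted p = 0.161). At an unadjusted p under 0.05, 893 genes had higher values (5.28%) and 954 lower values (5.64%).

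Within medium energy, with all 48 mice in the model, 0 genes passed (limma, 0% called), with 409 genes higher (2.42%) and 360 lower (2.13%) at an unadjusted p under 0.05. The smallest p was that of Evx2, a homeobox gene of low signal, with 1.20 and 1.04 on 33/47/20 against 1.85, 1.86 and 2.14 on 33/20/47 (difference -0.83 ± 0.16, adjusted p = 0.277). The medium energy mice fitted by themselves gave 1 gene (lowest adjusted p 0.0363). Without the second mouse on 33/47/20 there were 18 genes past the threshold, and without the first or the third mouse on 33/20/47 there were 2 and 1. For Atp8b1 the medium energy values were 7.71 and 7.69 on 33/47/20, against 7.86, 7.71 and 8.04 on 33/20/47, so that only the high energy fat-rich mice stood low.

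Whether the diet difference itself depended on energy was tested as an interaction, and 0 genes passed (limma, 0% called), with 1106 at an unadjusted p under 0.05. Cyp2c50, Atp8b1, Mug1 and Cyp2c54 shared the lowest adjusted p of 0.168. With the sex term 0 genes passed and the lowest adjusted p was 0.260. The count was 9 from the 9 mice alone, 8 without the second high energy mouse on 33/20/47, 6 without the second and 1 without the first medium energy mouse on 33/47/20, and 2 without the first high energy mouse on that diet. Cyp2c54, a P450 of the Cyp2c family, had 10.11 and 10.03 on 33/47/20 at high energy, against 6.33 and 7.73 on 33/20/47. At medium energy it had 5.67 and 7.16 on 33/47/20, against 10.43, 10.47 and 9.22 on 33/20/47. Its difference was thus 3.04 ± 1.04 at high and -3.63 ± 0.95 at medium energy. Cyp2c50 followed the same order, at 0.99 ± 0.45 and -1.96 ± 0.41. These Cyp2c genes have close paralogs on which their probe sets may partly bind, so their values are uncertain as to gene.

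**Figure D4:**
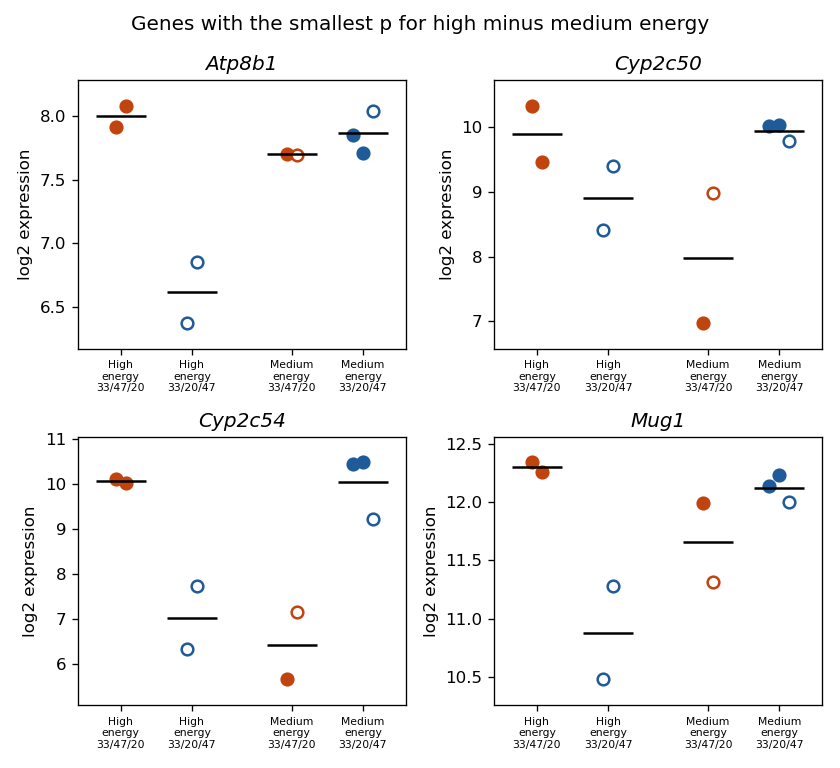
Log2 expression of Atp8b1, Cyp2c50, Cyp2c54 and Mug1, which had the lowest adjusted p for the difference between energy levels (0.168 each), in each of the 9 mice, red for 33/47/20 and blue for 33/20/47, with a line at each group mean and open points for mice with Xist above the Y-linked genes. Cyp2c54 is at 10.11 and 10.03 in the high energy 33/47/20 mice, against 6.33 and 7.73 in the high energy 33/20/47 mice, and lower on 33/47/20 at medium energy.

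Several lists had medians of opposite sign at the 2 energy levels. Unfolded protein response genes had a median of 0.57 at high energy (13 of 14 positive) and -0.39 at medium energy (1 of 14 positive). Cholesterol synthesis genes had 0.66 and -0.14, acute phase genes 0.31 and -0.36, and interferon-stimulated genes -0.58 and 0.58. Averaged over 19 cholesterol synthesis genes, the medium energy mice had 6.96 and 8.51 on 33/47/20, against 8.45, 8.19 and 7.14 on 33/20/47. Mice of 1 diet thus lay further apart than the median of -0.14. Genes known to be higher in male liver had 4.86 and -0.77, and those known to be higher in female liver -6.10 and 1.59. The high energy medians carry the limit on sex given above, and the medium energy ones are not balanced for it either. With the sex term the high energy medians were 0.50 for unfolded protein response, 0.41 for cholesterol synthesis, 0.28 for acute phase and -0.63 for interferon-stimulated genes. No member of these lists passed the interaction test.

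**Figure D5:**
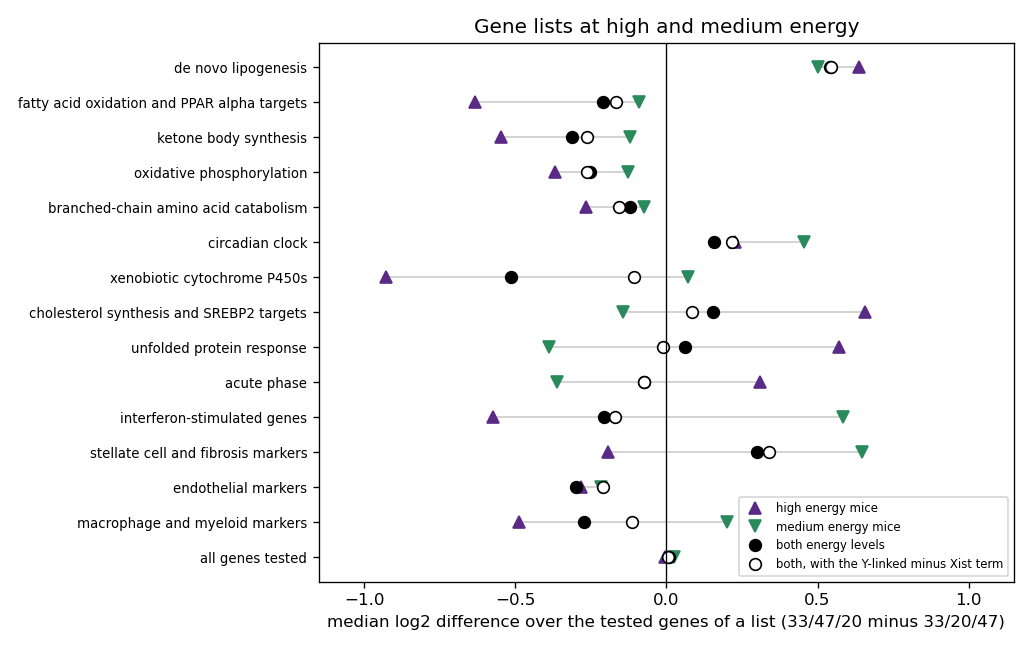
Median log2 difference (33/47/20 minus 33/20/47) over the tested genes of each list, from high energy mice (triangles up), medium energy mice (triangles down), both together (filled circles) and both with the sex term (open circles). De novo lipogenesis is positive in all 4, at 0.64, 0.50, 0.54 and 0.55, while the unfolded protein response runs from 0.57 at high to -0.39 at medium energy. The lists of genes higher in male or female liver are not drawn.

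The carbohydrate for fat exchange was also made at 5% and at 14% protein among high energy mice, on other animals and over 55 and 28 points of energy. At 5% protein 4 mice on 5/75/20 were set against 2 on 5/20/75. At 14% protein 2 mice on 14/57/29 were set against 4 on 14/29/57. Per 10 points from fat to carbohydrate, the lipogenic list had a median of 0.24 at 33% protein, 0.04 at 5% and 0.08 at 14%. Of its 20 members 15, 14 and 12 were positive in that order. Values per 10 points take the response as linear over unlike ranges, and the difference between these medians was not tested. Scd1 rose at 5% protein by 0.45 ± 0.07 per 10 points (limma adjusted p = 0.00136), against 0.26 ± 0.16 at 33% protein, and the difference of -0.19 ± 0.18 was not significant (adjusted p = 0.711). Slc25a20 had -0.38 ± 0.07 per 10 points at 33%, 0.00 ± 0.03 at 5% and -0.09 ± 0.06 at 14%, and the difference between 33% and 5% had an adjusted p of 0.0923. Atp8b1 had 0.51 ± 0.09 at 33%, -0.02 ± 0.04 at 5% and 0.04 ± 0.07 at 14%, with an adjusted p of 0.0695 for 33% against 5%. Slc25a20 and Atp8b1 were the 2 genes that passed in these same mice at 33% protein. Larger values at 33% than at the other shares therefore follow in part from that choice. No gene passed either test of the difference between protein shares (limma, 0% called in each), with 1752 at an unadjusted p under 0.05 for 33% against 5% and 998 for 33% against 14%. Without the second high energy mouse on 33/20/47 the counts were 24 and 8, and without the first high energy mouse on 33/47/20 they were 14 and 5. Against 5% protein the count was 2 without the second high energy mouse on 33/47/20 and 2 without the second on 5/20/75. With the sex term 0 genes passed either test, with a lowest adjusted p of 0.0766 against 5% and 0.107 against 14%. The high energy limit on sex given above holds for these values too.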

How the data were processed

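Liver RNA of 48 mice was measured on Affymetrix arrays. The deposited table held 1 value per probe set and array, for 41345 probe sets, read as log2 expression because the deposited values span -0.51 to 13.42. For background correction, normalization and unit, nothing is given in the sources used here. The number of arrays limits the precision. Platform annotation named 23521 probe sets with 1 gene each, and a gene was its probe set with the highest mean. Testing covered the 16926 genes whose mean exceeded 1.17, the 30th percentile over probe sets.

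Groups came from the labels. Linear models with trended empirical Bayes moderation (limma 3.58.1, R 4.3.3) used all 48 mice. The 9 mice on 33% protein set the diet difference, with energy level as a term, and each other combination had its own mean and added only to the estimate of spread. Tests were two-sided, adjusted by Benjamini-Hochberg over all genes. The script was tested on simulated data.

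The members and the 38 gene lists were chosen with earlier results of these data known. Named genes were the 12 smallest p in each direction, the 5 smallest of each other comparison, up to 4 smallest of each list in the text, and fixed diet genes, some of which are not reported here. Promoters came from RefSeq GRCm38.p6.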

Additional observations from a re-analysis of the deposited data

Results flagged for a closer look

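Of the values per mouse, 10 of 172 groups (each gene or array measure on 1 diet) had a mouse far from the rest of its group by Dixon's ratio, where chance alone flags about 1 in 20. On 33/47/20, the second medium energy mouse had 5.89 for Pnpla3 while the other 3 had 1.35 to 1.85. The first medium energy mouse had 4.56 for Mvd, of cholesterol synthesis (others 6.42 to 6.66), and 1.42 for Sapcd1 (others 1.73 to 1.78). The second high energy mouse had an array interquartile range of 3.09 (others 3.29 to 3.3). On 33/20/47, the first high energy mouse had 3.49 for Smad1 (others 4.0 to 4.19), 2.43 for Tagln3 (others 1.61 to 1.75) and 5.92 for Fgfr4, the bile acid feedback receptor (others 6.57 to 6.83). The first medium energy mouse had 10.21 for Acly (others 8.77 to 9.15) and 1.09 for Map9 (others 1.6 to 1.72). The second had 4.53 for D030056L22Rik (others 3.56 to 3.79).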

How the results depend on the processing

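The count of 0 genes for 33/47/20 against 33/20/47 held in every alternative run except the energy levels fitted alone, which gave 1 gene each. Its lowest adjusted p was 0.0568 with the Y-linked minus Xist term, and leaving out 1 mouse at a time gave 0 to 0 genes. At high energy, in place of 2 genes, the count was 0 with that term or with arrays centred on their median, 1 without a filter or after quantile normalization, 4 with the interquartile range term, 6 from the 9 mice alone (neither Atp8b1, adjusted p = 0.132, nor Slc25a20, adjusted p = 0.136, among them), and 0 to 41 with 1 mouse left out. Leaving out a mouse gave 0 to 18 genes at medium energy, 0 to 8 for high minus medium energy, 0 to 24 for 33% minus 5% protein and 0 to 8 for 33% minus 14%. High minus medium energy gave 9 genes from the 9 mice alone, and 33% minus 5% gave 1 with the interquartile range term and 1 after quantile normalization. With both array terms together, an alternative chosen after seeing the data, the count was 0 over both energy levels, 3 at high energy (lowest adjusted p 0.0289) and 0 at medium energy. Where leaving out 1 mouse leaves an arm with 1, that mouse is assumed to vary like the other groups.

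Small differences changed sign. With the Y-linked minus Xist term Thrsp had -0.0393, Pdk4 0.19, Cyp7a1 -0.13 and the unfolded protein response median -0.0103, and with both terms Cidec had -0.0840, Cyp7a1 -0.38 and that median -0.0180. Array centring gave a bile acid median of 0.000611, quantile normalization a Cyp7a1 value of -0.00602, and array weights a Thrsp value of -0.00430. A term for mouse number over 300 gave Thrsp -0.00931 and Pdk4 0.0102. The high energy mice at 33% protein were numbered 131 to 198. The medium energy mice were 381 and 418 on 33/47/20 and 150, 419 and 420 on 33/20/47. The energy levels thus also differed in mouse number. High energy mice alone gave Thrsp -0.32, Pnpla3 -1.08, Pparg -0.0287, Cyp7a1 -1.02, Col6a1 -0.0340, a stellate median of -0.19 and a bile acid median of 0.15. Medium energy mice alone gave Pdk4 0.25, Cd36 0.33, Pck1 0.00959, Sqle -0.76, Khk 0.0526, and medians of 0.0714 for P450s, -0.14 for cholesterol synthesis and -0.39 for the unfolded protein response. With 1 mouse left out the ranges were -0.74 to 0.61 for Thrsp, -0.68 to 1.27 for Pnpla3, -0.14 to 0.75 for Pklr, -0.54 to 0.36 for Pdk4, -0.77 to 0.0185 for Cd36, -0.0439 to 0.902 for Cidec, -0.45 to 0.46 for Cyp7a1, -0.10 to 0.00616 for Pck1, -0.16 to 1.12 for Sqle, and for the medians -0.11 to 0.61 (cholesterol synthesis), -0.0698 to 0.22 (unfolded protein response) and -0.14 to 0.15 (bile acids). The cause of these changes was not tested. The lipogenic median kept its sign in every alternative. No paired analysis was possible because each value is from a separate mouse on 1 diet.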
